A study of Mus musculus with 7 samples.

Results

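The 36 genes described here encode ligands, receptors, secreted antagonists and inhibitory Smads of the BMP and TGF-beta pathways, together with Id1 and Id3, which are transcribed in response to BMP signals. They were taken by name from the 32285 genes of a single-cell RNA-seq matrix of the trigeminal ganglion, whose neurons carry sensation from the face, mouth and teeth, and all 36 were measured. The members are 15 ligand genes, 12 receptor genes, 5 genes of secreted antagonists or binding proteins, 2 inhibitory Smads and 2 Id genes. The ganglion library came from wild-type mice at postnatal day 3.5, and how many animals were pooled for it is not known. The series also labels 6 bulk libraries of molars taken at postnatal day 7.5 after tamoxifen (TMX), 3 of genotype Fgfr2fl/fl as controls and 3 of genotype Gli1-CreER;Fgfr2fl/fl, in which a drug-inducible Cre is driven from the Gli1 locus. Those molar libraries were not analysed here, so no comparison of genotypes was made.

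Ligands of this superfamily bind a complex of type I and type II receptors, which phosphorylates receptor Smads. BMPs act largely through Bmpr1a, Bmpr1b or Acvr1 with Bmpr2 or an activin type II receptor, and TGF-betas through Tgfbr1 with Tgfbr2. Noggin, chordin and gremlin hold BMPs away from their receptors, follistatin does so for activins, and Smad6 and Smad7 act inside the cell as feedback inhibitors. In peripheral nerve the pathway is known for its part in Schwann cell and sensory neuron development.

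Barcodes with at least 1000 UMIs (unique molecular identifiers, each counting 1 captured transcript), at least 500 genes and at most 20% mitochondrial UMIs were kept, 9427 of 13065, with a median of 10861 UMIs and a range from 1000 to 330393. A kept cell that passed more than 1 marker gate was classed only where its best score was at least 1.5 times the next. Of the kept cells, 7349 were placed in 15 classes, named for the cells they resemble. They were neuron-like (810 cells), satellite glia-like (253), mature myelinating Schwann-like (550), early myelinating Schwann-like (651), immature Schwann-like (1535), fibroblast-like (1255), cartilage- or bone-like (215), endothelial-like (264), mural-like (86), macrophage-like (347), neutrophil- or monocyte-like (142), erythroid-like (782), B lymphocyte-like (95), central oligodendrocyte lineage-like (250) and central astrocyte-like (114) cells. The suffix is left out in what follows. Each gate is a range of a score: 1086 kept cells lay within 20% of the gate threshold, and among 2989 glial cells 217 lay within 20% of the satellite split and 189 within 20% of the split for mature myelin. The early myelinating and immature Schwann classes had 0 of their markers among their top 10 genes, which were led by Cdkn1c and Pou3f1 and by Sostdc1 and Slc35f1. In the immature Schwann class 3 of 9 markers were at least 2-fold higher than elsewhere. The cartilage or bone class held 66 cells of a cluster led by the sheath gene Slc4a10, the astrocyte class 32 cells of a satellite-like cluster led by Fabp7, and the neuron class 72 cells of a cluster led by Dcc and Barhl1. Neurons held a median of 11509 UMIs but 36744159 of the 119154216 UMIs of gated cells.

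Levels are UMIs summed over a class and scaled to a class total of 1000000 UMIs (CPM), with exact 95% Poisson intervals in parentheses. Ratios are given with exact conditional binomial intervals. All intervals cover counting error only: there was 1 library, hence no replicate error, no test and no p-value. A member is called higher or lower where both sides together held at least 20 UMIs, the ratio was at least 2 or at most 0.5, and its interval left out 1. Fewer cells with a transcript and less transcript per cell are not separated by a summed level. Erythroid cells served as the measure of free RNA in the droplets, since markers of neurons, myelinating Schwann cells and fibroblasts stood in them at a median of 2.35%, 2.28% and 3.44% of their own level. UMI counts are compared between classes within a gene, not between genes.

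The RefSeq promoter windows of Smad6 and Id3 are shown because both genes are read below as response genes of the BMP branch. Each sequence runs from 250 bases before the RefSeq start to 20 bases after it (GRCm38.p6). Capitals mark the 8-base palindrome GTCTAGAC, a Smad-binding box.

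Smad6, chr9:64022040-64022309, minus strand: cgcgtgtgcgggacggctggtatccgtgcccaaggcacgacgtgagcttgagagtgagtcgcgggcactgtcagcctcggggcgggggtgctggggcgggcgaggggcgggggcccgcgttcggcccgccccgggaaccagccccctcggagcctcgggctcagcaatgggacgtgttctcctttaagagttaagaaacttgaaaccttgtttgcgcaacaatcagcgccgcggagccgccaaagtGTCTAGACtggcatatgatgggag

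Id3, chr4:136143572-136143841, plus strand: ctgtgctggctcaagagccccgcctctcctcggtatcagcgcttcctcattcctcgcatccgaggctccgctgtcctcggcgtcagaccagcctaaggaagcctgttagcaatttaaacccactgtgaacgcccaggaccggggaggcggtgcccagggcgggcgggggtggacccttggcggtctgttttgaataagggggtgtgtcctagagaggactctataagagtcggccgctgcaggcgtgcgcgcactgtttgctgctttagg

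RefSeq promoter windows of 300 bases were matched for 26 members, in 30 windows. GTCTAGAC, which is its own reverse complement, was found in the window of 1 member, Smad6, where it spans the start site with 4 bases on each side. It occurs in 70 of all 32851 windows, or 0.213%. The GC-rich palindrome GGCGCC, known as a binding sequence of BMP Smads, was found in 7 of the 30 windows, those of Bmpr2, Grem1, Tgfbr1, Gdf10, Bmpr1a, Acvr1b and Chrd, and in 11.9% of all windows. The Id3 window holds neither string. The Id3 sequence shown lies inside the gene as annotated by GENCODE, which starts at 136143497, so it holds no base before that start. A match describes letters only.

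Of the 15 ligand genes, 9 were higher in fibroblasts than in all other gated cells together, 8 in cartilage or bone, 5 in mural cells, 2 in neurons and 0 in each of the 3 Schwann classes. Over all roles, 18 of 36 members were higher in fibroblasts, where 15.8% of the 19455 genes tested were higher. The median log2 ratio of the members was 1.00 in fibroblasts, against -0.11 over all genes tested. In cartilage or bone 14 members were higher (8.58% of genes), in endothelial cells 11 (11.3%), in mural cells 10 (8.22%) and in central astrocytes 9 (9.97%). Macrophages had 6 higher members (11.7%), satellite glia 5 (7.62%), the oligodendrocyte lineage 4 (8.95%), neutrophils or monocytes 3 (8.76%) and B lymphocytes 3 (11.1%). Neurons had 4 higher members where 21.2% of genes were higher, and 21 lower members where 33.1% of genes were lower. Their median log2 ratio was -1.98 over the members and -0.28 over all genes. Mature myelinating Schwann cells had 1 higher member (5.47% of genes), and 26 members were called in either direction (35.4%). Early myelinating cells had 3 higher (4.52%) and 23 lower (29.1%), and immature Schwann cells 2 higher (8.51%) and 24 lower (29.2%). Erythroid cells had 0 higher members (3.86%) and 34 lower (67.0%). Of the remaining classes, fibroblasts had 3 lower members (22.0% of genes lower), endothelial cells 10 (18.1%), mural cells 7 (11.7%), central astrocytes 11 (12.9%) and satellite glia 13 (15.9%). Macrophages had 22 lower members (27.1%), neutrophils or monocytes 29 (31.9%), B lymphocytes 19 (21.2%) and the oligodendrocyte lineage 18 (21.2%). Cartilage or bone had 4 lower members, where 3884 of the 19455 genes tested were lower.

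**Figure D1:**
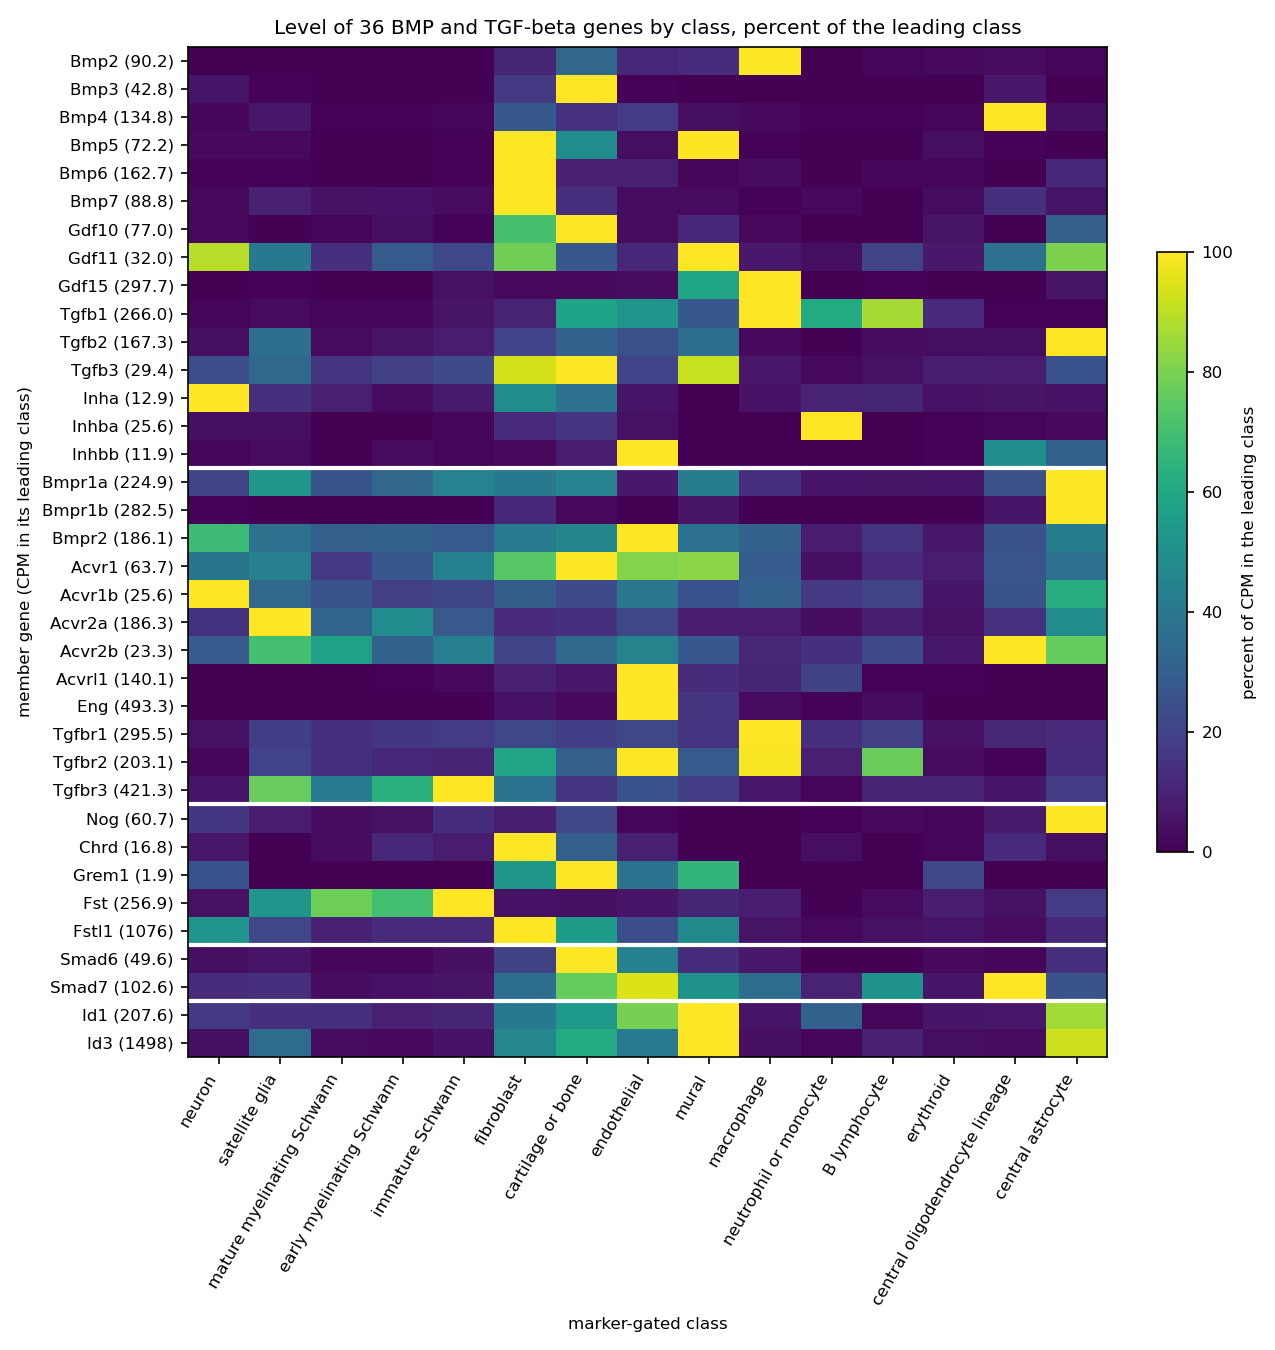
Level of each of the 36 members (rows, grouped as ligands, receptors, secreted antagonists, inhibitory Smads and Id genes) in each of the 15 classes (columns), as a percent of the CPM in its leading class, which is given in parentheses. Bright cells for Bmp5, Bmp6 and Bmp7 stand in the fibroblast column, and the Schwann columns are bright for Fst and Tgfbr3.

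Bmp5, Bmp6 and Bmp7 each had their highest level in fibroblasts. Bmp6 (chromosome 13, 38345107 to 38500302, plus strand), a BMP known also from iron control, stood at 163 CPM in fibroblasts (157 to 169, 3015 UMIs), which was 91.7% of its UMIs over gated cells. That was 8.57 times (6.02 to 12.6) the level in central astrocytes, the next class, while neurons had 1.52 CPM against 2.18 CPM in erythroid cells. Bmp6 overlaps the 3′ end of Txndc5 on the other strand. Its ratio of fibroblasts to all other gated cells was 60.2 (53.2 to 68.4). Bmp7, a ligand of kidney and eye development, had 88.8 CPM in fibroblasts (84.5 to 93.2) and 12.4 CPM in cartilage or bone, the next class. Its ratio of fibroblasts to other cells was 24.7 (22.1 to 27.8). Bmp5, a ligand of skeletal shape, had 72.2 CPM in fibroblasts (68.3 to 76.1) and 71.7 CPM in mural cells (54.2 to 93.2), which were not apart, and 35.2 CPM in cartilage or bone. Mural cells led Bmp5 when clusters replaced the gates, at 79.7 against 62.8 CPM in fibroblasts. They also led with a stricter cell filter (72.8 against 72.3 CPM) and with cells of more than 1 gate kept (71.2 against 68.6 CPM). At 5000 UMIs per cell, 42.0% of fibroblasts held a Bmp6 UMI, 31.3% a Bmp7 UMI and 27.9% a Bmp5 UMI, against 0.734%, 1.32% and 0.881% of erythroid cells.

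Bmp4 (chromosome 14, 46383520 to 46390669, minus strand), a ligand of early patterning, was led by the central oligodendrocyte lineage at 135 CPM (124 to 146, 591 UMIs), followed by fibroblasts at 37.4 CPM (34.6 to 40.2) and endothelial cells at 23.7 CPM. Its level was 1.11 to 2.45 CPM in the 3 Schwann classes and in neurons, beside 2.08 CPM in erythroid cells. Bmp2, a bone-inducing ligand, was led by macrophages at 90.2 CPM (80.1 to 101), 3.04 times (2.46 to 3.79) the level in cartilage or bone. Bmp3, which lowers the response to other BMPs, had 42.8 CPM in cartilage or bone and 7.34 CPM in fibroblasts. Gdf10, its close relative, had 77.0 CPM in cartilage or bone (68.8 to 86.0) and 54.7 CPM in fibroblasts (51.4 to 58.2). That order turned when clusters replaced the gates, with 8.55 CPM in cartilage or bone and 85.7 CPM in fibroblasts, and when the gate thresholds were 2 times as high, with 15.2 and 33.9 CPM.

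Macrophages had the highest level of both Gdf15 and Tgfb1. Gdf15, a stress-induced ligand that acts on hindbrain neurons, had 298 CPM in macrophages (279 to 317) and 176 CPM in mural cells (147 to 208). In mural cells 72 of the 137 UMIs came from 1 cell, and the level was 85.3 CPM (65.8 to 109) without it. In macrophages the cell with most Gdf15 UMIs held 10.0% of them. Tgfb1 had 266 CPM in macrophages (248 to 285), 230 CPM in B lymphocytes (197 to 266), 163 CPM in neutrophils or monocytes, 154 CPM in cartilage or bone and 140 CPM in endothelial cells. Macrophages and B lymphocytes were not apart, with a ratio of 1.16 (0.983 to 1.37). Schwann classes, satellite glia and neurons lay between 3.16 and 13.6 CPM of Tgfb1, below the 32.5 CPM of erythroid cells. As the erythroid level stood above that of all these classes, it is not read as free RNA for this gene.

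Tgfb2, a TGF-beta needed for heart and skeletal development, had 167 CPM in central astrocytes (148 to 188), 60.2 CPM in mural cells, 60.1 CPM in satellite glia (51.5 to 69.8) and 52.2 CPM in cartilage or bone, against 6.12 CPM in neurons and 6.02 CPM in erythroid cells. Tgfb3, needed for palate closure, had 29.4 CPM in cartilage or bone (24.4 to 35.1), 27.5 CPM in fibroblasts and 26.9 CPM in mural cells, of which the first pair was not apart (ratio 1.07, 0.870 to 1.31). Gdf11, a ligand of axial patterning, was likewise not apart between mural cells (32.0 CPM, 25 UMIs) and neurons (28.6 CPM, 26.9 to 30.4).

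Of the activin and inhibin subunits, Inha, the inhibin alpha subunit, was highest in neurons at 12.9 CPM (11.7 to 14.1) and had 6.26 CPM in fibroblasts, a ratio of 2.06 (1.67 to 2.54). At 5000 UMIs per cell 6.38% of neurons held an Inha UMI, against 0.294% of erythroid cells. Inhba, the activin A subunit, had 41 of its 167 UMIs in neutrophils or monocytes, at 25.6 CPM (18.3 to 34.7). Inhbb, the activin B subunit, had 88 UMIs in all and 11.9 CPM in endothelial cells, where 11 of 32 UMIs came from 1 cell.

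**Figure D2:**
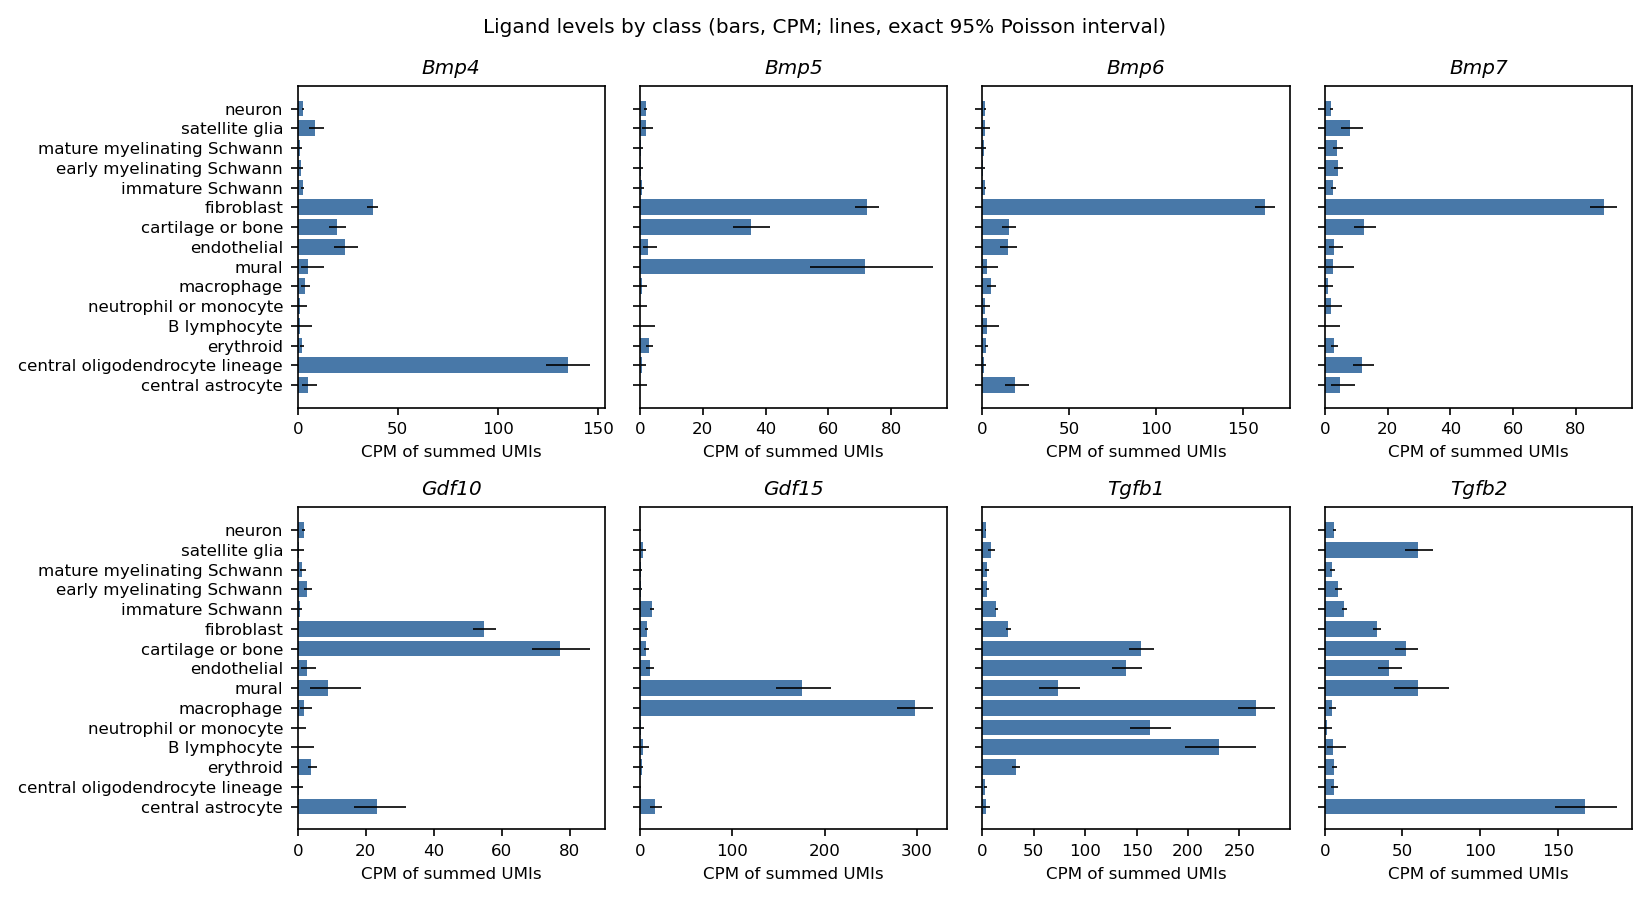
CPM of 8 ligand genes (horizontal axis, from 0) in the 15 classes (vertical axis), bars with exact 95% Poisson intervals. Bmp6 and Bmp7 stand out in fibroblasts, Bmp4 in the oligodendrocyte lineage, Gdf15 and Tgfb1 in macrophages and Tgfb2 in central astrocytes.

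Bmpr1a, a BMP type I receptor, was found in most classes: 225 CPM in central astrocytes (202 to 249), 119 CPM in satellite glia (107 to 133), 58.6 to 99.3 CPM in the Schwann classes, 91.1 CPM in fibroblasts and 46.0 CPM in neurons, beside 12.5 CPM in erythroid cells. Bmpr1b, its close relative, had 282 CPM in central astrocytes (257 to 309), 9.10 times (8.03 to 10.3) the level in fibroblasts, and at most 3.21 CPM in neurons, satellite glia and the Schwann classes. Bmpr2, the BMP type II receptor mutated in pulmonary arterial hypertension, led in endothelial cells at 186 CPM (170 to 203) with neurons next at 127 CPM (124 to 131). Acvr1, the BMP type I receptor mutated in fibrodysplasia ossificans progressiva, had 63.7 CPM in cartilage or bone (56.2 to 71.8) and 52.5 CPM in mural cells, which were not apart, then 51.9 CPM in endothelial cells.

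Acvr2a (chromosome 2, 48814109 to 48903269, plus strand), a type II receptor for activins and BMPs, was led by satellite glia at 186 CPM (171 to 203, 533 UMIs). Central astrocytes and early myelinating Schwann cells followed at 90.1 and 90.0 CPM, and the ratio to the former was 2.07 (1.72 to 2.50). Acvr2a overlaps Orc4 on the other strand at its end. At 5000 UMIs per cell, 48.0% (41.4 to 54.7) of satellite glia held an Acvr2a UMI. Acvr2b, the second activin type II receptor, reached 23.3 CPM in the oligodendrocyte lineage and was not apart in central astrocytes at 17.8 CPM. Acvr1b, the activin type I receptor, was highest in neurons at 25.6 CPM (24.0 to 27.3), 4.18 times (3.75 to 4.67) all other gated cells.

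Endothelial cells held the pair Acvrl1 and Eng, a type I receptor and a co-receptor that carry BMP9 and BMP10 signals in vessels. Acvrl1 had 140 CPM there (126 to 155) against 27.4 CPM in neutrophils or monocytes. Eng had 493 CPM (467 to 521), or 63.4% of its gated UMIs, against 76.9 CPM in mural cells. Tgfbr1, the TGF-beta type I receptor, was led by macrophages at 295 CPM (277 to 315), 4.64 times (3.94 to 5.49) endothelial cells. Tgfbr2, its type II partner, had 203 CPM in endothelial cells (186 to 221) and 201 CPM in macrophages (186 to 217), which were not apart, then 157 CPM in B lymphocytes and 118 CPM in fibroblasts. Tgfbr2 was at 2.72 CPM in neurons and 1.82 CPM in the oligodendrocyte lineage, below the 5.71 CPM of erythroid cells. Tgfbr3 (betaglycan, a TGF-beta and inhibin co-receptor) was led by immature Schwann cells at 421 CPM (412 to 431), followed by satellite glia at 324 CPM (303 to 345) and early myelinating Schwann cells at 269 CPM.

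Shares of cells with both receptors of a pair were counted in cells thinned to 5000 UMIs, which left out shallower cells (293 of 810 neurons and 92 of 264 endothelial cells). Some BMP type I and some BMP type II receptor were found together in 54.5% of central astrocytes (44.2 to 64.6, Clopper-Pearson), 34.5% of satellite glia (28.4 to 41.0), 24.1% of fibroblasts (21.7 to 26.7) and 17.4% of neurons (14.2 to 21.0), against 2.20% of erythroid cells. Tgfbr1 and Tgfbr2 were found together in 40.4% of macrophages (34.5 to 46.6), 21.5% of endothelial cells (15.6 to 28.4) and 12.5% of fibroblasts (10.7 to 14.6), and in 0 of 517 neurons, which at this depth allows a share of neurons with both UMIs of up to 0.580% by 3 counts of the total, or up to 0.711% by the exact interval. Acvrl1 and Eng were found together in 39.0% of endothelial cells (31.6 to 46.7) and in 0.773% of fibroblasts, with 0.147% of erythroid cells as background. Median depths before thinning were 75645 UMIs for the neurons and 10822 UMIs for the erythroid cells used. Without thinning, the BMP pair was found in 72.8% of central astrocytes, 63.6% of satellite glia, 63.2% of fibroblasts, 51.9% of neurons and 6.65% of erythroid cells. The TGF-beta pair was then found in 52.4% of macrophages, 42.5% of fibroblasts, 33.0% of endothelial cells, 3.83% of neurons and 1.92% of erythroid cells.

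**Figure D3:**
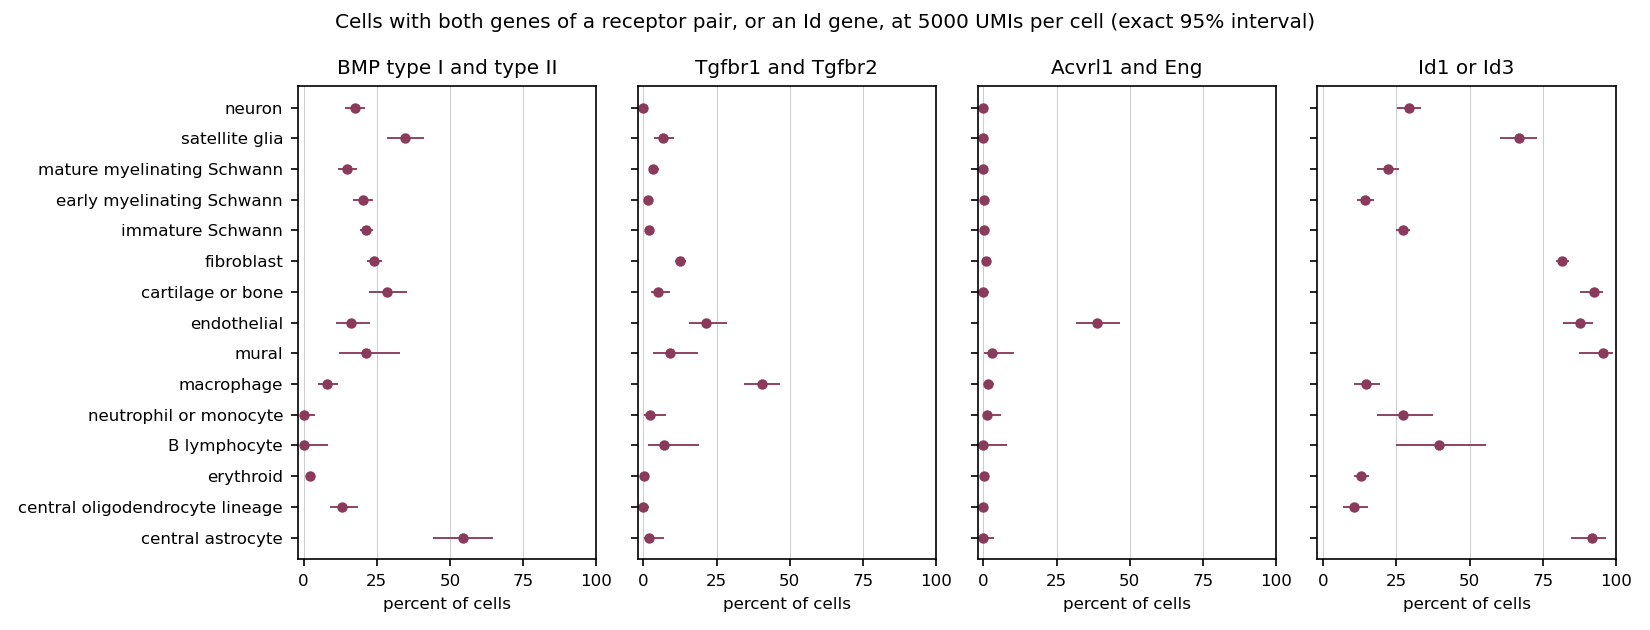
Percent of cells (horizontal axis) of each class that held both genes of a receptor pair, or Id1 or Id3, after thinning to 5000 UMIs per cell, with exact 95% intervals. The TGF-beta receptor pair is highest in macrophages at 40.4%, the endothelial pair in endothelial cells at 39.0%, and Id genes are found in over 80% of cells in 5 classes.

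Of the secreted antagonists, Fst (follistatin, chromosome 13, 114452290 to 114458951, minus strand) was highest in the Schwann classes, with 257 CPM in immature (249 to 265), 200 CPM in mature myelinating (190 to 211), 179 CPM in early myelinating Schwann cells and 134 CPM in satellite glia (121 to 148), against 12.1 CPM in fibroblasts and 11.7 CPM in neurons, both below the 19.3 CPM of erythroid cells. Its annotated overlap is with Gm47040, an antisense gene. Nog (noggin) had 60.7 CPM in central astrocytes (49.3 to 73.9), 13.1 CPM in cartilage or bone and 9.53 CPM in neurons. Chrd (chordin) had 16.8 CPM in fibroblasts, from 311 UMIs, 3.29 times (2.11 to 5.39) its level in cartilage or bone. Grem1 (gremlin) had 52 UMIs in all gated cells, of which 19 were in fibroblasts and 18 in neurons, and its leading class was not apart from the next. Fstl1, a secreted glycoprotein related to follistatin, had 1076 CPM in fibroblasts (1061 to 1091), 596 CPM in cartilage or bone and 561 CPM in neurons (553 to 568), against 62.7 CPM in erythroid cells.

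Smad6, the feedback inhibitor of the BMP branch, had 49.6 CPM in cartilage or bone (43.0 to 56.8) and 21.9 CPM in endothelial cells (16.6 to 28.2), and at most 2.80 CPM in neurons, satellite glia and the Schwann classes. Smad7, which inhibits both branches, had 103 CPM in the oligodendrocyte lineage (93.4 to 113) and 97.1 CPM in endothelial cells (85.7 to 110), which were not apart. Id1, an inhibitor of bHLH transcription factors, had 208 CPM in mural cells (177 to 242), 179 CPM in central astrocytes (159 to 201), 165 CPM in endothelial cells and 112 CPM in cartilage or bone, the first pair not apart. Id3 (chromosome 4, 136143497 to 136145755, plus strand) had 1498 CPM in mural cells (1413 to 1586), 1385 CPM in central astrocytes (1329 to 1444), 918 CPM in cartilage or bone, 691 CPM in fibroblasts, 621 CPM in endothelial cells and 524 CPM in satellite glia. The order of mural cells and central astrocytes turned for both Id genes with gate thresholds 2 times as high. Id3 had 63.7 CPM in neurons and from 29.6 to 71.7 CPM in the Schwann classes, beside 53.1 CPM in erythroid cells. At 5000 UMIs per cell, Id1 or Id3 was found in 95.5% of mural cells, 92.5% of cartilage or bone cells, 81.7% of fibroblasts and 66.8% of satellite glia (60.3 to 72.9), and in 29.2% of neurons and 14.3% of early myelinating Schwann cells, with 12.8% of erythroid cells as background. The oligodendrocyte lineage, which led Bmp4 and Smad7, had 10.4% (6.62 to 15.3).

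Satellite glia, which wrap the bodies of sensory neurons, were compared with each Schwann class. Against mature myelinating Schwann cells 10 of 21 members tested were higher in satellite glia and 0 lower (24.2% of genes called in either direction), against early myelinating cells 6 of 23 were higher and 1 lower (20.9%), and against immature cells 7 of 28 were higher and 2 lower (16.3%). The lower ones were Gdf10 against early myelinating cells and Gdf15 and Acvrl1 against immature cells. Tgfb2, Acvr2a, Bmp4, Smad7 and Id3 were higher in all 3 comparisons. Id3 was 12.1-fold (10.7 to 13.8) above mature myelinating, 17.7-fold (15.4 to 20.3) above early myelinating and 7.30-fold (6.77 to 7.89) above immature Schwann cells. Tgfb2 was 12.7-fold (8.76 to 18.9), 6.91-fold (5.22 to 9.23) and 4.80-fold (3.90 to 5.90) higher. Acvr2a was 3.1-fold (2.73 to 3.53), 2.07-fold (1.85 to 2.32) and 3.58-fold (3.21 to 3.99) higher. Bmp4 rested on 25 UMIs in satellite glia. As 32 astrocyte-class cells lay in a cluster with satellite glia, and 217 glia lay near the satellite split, the part of these cells in the differences was not tested.

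Among Schwann cells, mature myelinating cells were lower than immature cells in 10 of 29 members tested (18.3% of genes) and higher in 0. Tgfbr3 in the mature cells was 0.412 times (0.388 to 0.438) its immature level, and Acvr1 was 0.384 times (0.297 to 0.489) its immature level, 10.7 against 27.9 CPM. Gdf15 was at 0.835 CPM in mature and 12.9 CPM in immature cells, a ratio of 0.0645 (0.0234 to 0.143). Tgfb1, Acvrl1 and Eng were also called, at levels of 13.6 CPM or less. The erythroid levels were 32.5 CPM for Tgfb1, 1.56 CPM for Acvrl1 and 3.64 CPM for Eng. Because the Schwann levels are low, none of the 3 is read further. Fst and Bmpr2 did not pass the 2-fold limit between Schwann classes. Cycling immature Schwann cells (368 of 1535) differed from the others in 3 of 27 members, all lower (5.01% of genes), among them Tgfb2 at 6.87 against 15.1 CPM. Bmp6 and Bmp7, also called, rested on 2 and 4 UMIs in the cycling cells. Erythroid levels were 6.02 CPM for Tgfb2, 2.18 CPM for Bmp6 and 2.80 CPM for Bmp7. Cycling fibroblasts (69 of 1255) differed in 1 of 34, Gdf15, which was higher (5.92% of genes).

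**Figure D4:**
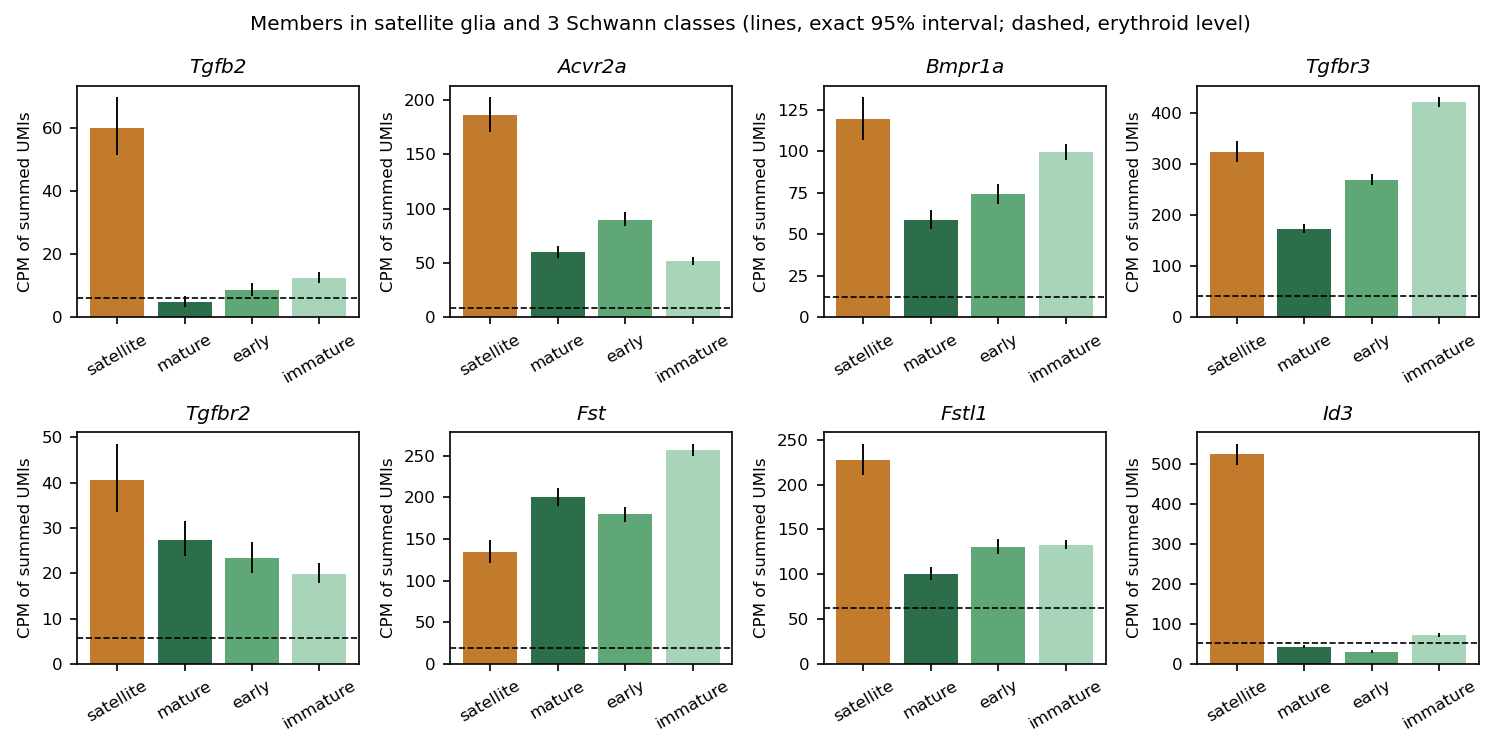
CPM (vertical axis, from 0) of 8 members in satellite glia and 3 Schwann classes, bars with exact 95% intervals, and the erythroid level as a dashed line. Tgfb2 and Id3 stand well above the line in satellite glia only, while Fst and Tgfbr3 are above it in all 4 classes.

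The sheath or meningeal subgroup (118 cells, with Slc4a10, Slc22a6 and Aldh1a2 among its markers) had 4 members higher than other fibroblasts, where 7.52% of genes were: Bmp4, Tgfb2, Smad6 and Id1. Bmp4 stood at 153 CPM there (136 to 172) against 23.9 CPM in other fibroblasts, a ratio of 6.43 (5.51 to 7.5). Id1 stood at 262 against 63.0 CPM (ratio 4.17, 3.74 to 4.64) and Smad6 at 33.2 against 6.93 CPM (ratio 4.79, 3.47 to 6.56). Another 4 members, Bmp2, Gdf11, Bmpr1b and Fst, were lower there (7.16% of genes), among them Bmpr1b at 8.81 against 33.6 CPM. The Adamts12 subgroup (499 cells) had 12 of 34 members lower than other fibroblasts (6.07% of genes) and 1 higher (3.20%). The higher one was Bmp6, at 244 CPM (232 to 256) against 115 CPM. Bmp6 was also at 217 CPM (197 to 239) in sheath or meningeal fibroblasts, so its high level was not particular to the Adamts12 subgroup. In the Adamts12 subgroup Tgfb2 was at 3.34 CPM against 51.2 CPM, a ratio of 0.0653 (0.0410 to 0.0989). Id1 was there at 32.5 against 114 CPM. Bmp5 and Bmp7 were at 102 and 127 CPM in these cells, less than 2 times other fibroblasts. The connective tissue subgroup (203 cells) had 6 higher members (2.71% of genes), Tgfb2, Tgfb3, Nog, Fst, Fstl1 and Smad7. Fstl1 reached 1952 CPM there (1905 to 2001) against 886 CPM. Its 3 lower members (4.61% of genes) were Bmp6, at 67.0 against 183 CPM, Bmp7, at 47.3 against 97.8 CPM, and Inha.

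In peptidergic neurons (118 cells), which hold neuropeptides such as substance P, 9 of 31 members tested were higher than in other neurons and 1 was lower (13.5% of genes called in either direction). Fstl1 was at 1353 CPM (1323 to 1383) in these cells, 445 CPM in Mrgprd non-peptidergic neurons, 493 CPM in A-fibre neurons, 219 CPM in Trpm8 cold-sensing neurons and 77.0 CPM (68.0 to 86.8) in C-low-threshold mechanoreceptor neurons, beside 62.7 CPM in erythroid cells. Inhba had 25 of its 35 neuronal UMIs in peptidergic neurons. A-fibre neurons (131 cells) had 7 higher and 4 lower members (18.0% of genes called). The higher ones were Bmp5, Bmp6, Tgfb2, Inha, Acvr1b, Chrd and Smad7. Acvr1b was at 60.1 CPM in them (53.5 to 67.4) against 20.3 CPM in other neurons, a ratio of 2.97 (2.58 to 3.41), and Inha at 23.0 against 11.3 CPM. Bmp5 and Bmp6, at 6.32 and 4.08 CPM, rested on 31 and 20 UMIs. Depth differed between subgroups: A-fibre neurons had a median of 7562 UMIs against 18145 for other neurons, peptidergic neurons 35506 against 10203, and Mrgprd neurons 87080 against 8569. The part of depth in these differences was not tested. Mrgprd neurons had 13 lower members (17.6% of genes), and 2 higher (3.39%), Bmp7 and Nog. Nog was at 13.9 CPM against 6.72 CPM, and Bmp7 at 3.01 CPM against 1.42 CPM, beside 2.80 CPM in erythroid cells. Nog was also at 13.9 CPM (10.7 to 17.7) in neurons placed in no subgroup and at 10.6 CPM (8.10 to 13.5) in peptidergic neurons. C-low-threshold mechanoreceptor neurons had 7 lower members (9.78% of genes). Trpm8 cold-sensing neurons (51 cells) had 0 of 31 members higher and 6 lower (8.77% of genes), which were Tgfb2, Bmpr1b, Tgfbr3, Nog, Fst and Fstl1. Of these, Bmpr1b rested on 1 UMI and Tgfb2 on 5 UMIs in the Trpm8 cells. Tgfb2 at 1.84 CPM and Tgfbr3 at 8.44 CPM lay there below their erythroid levels of 6.02 and 41.5 CPM. Fst lay below its erythroid level of 19.3 CPM in neurons as a whole. No member is described in the 16 Mrgpra3 pruriceptor neurons.

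**Figure D5:**
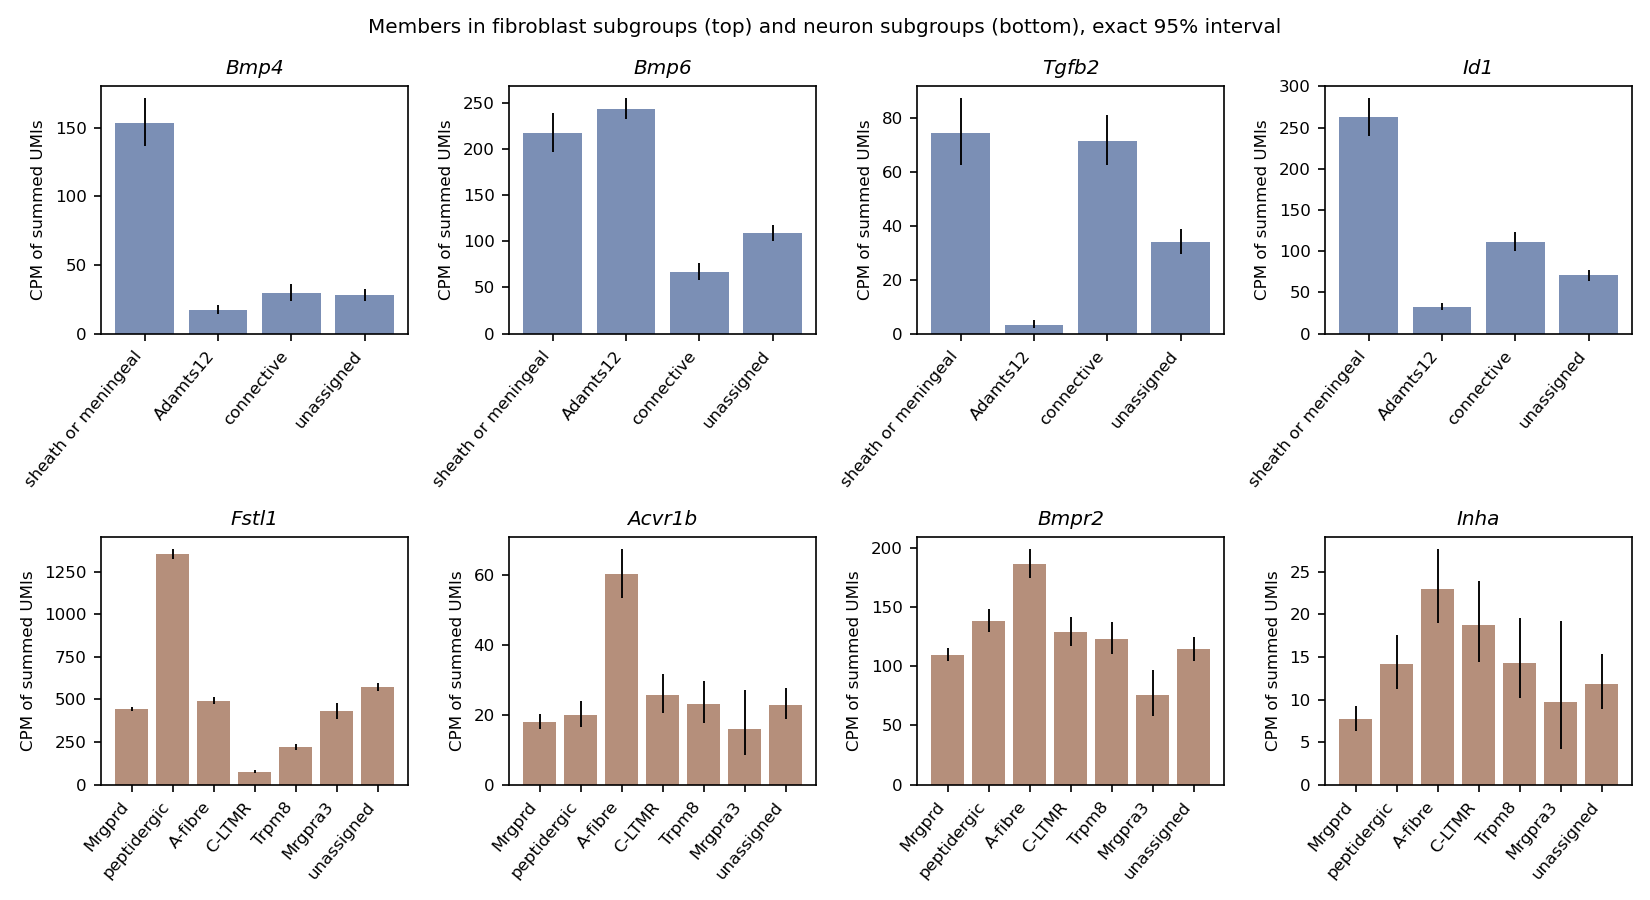
CPM (vertical axis, from 0) of 4 members in fibroblast subgroups and 4 members in neuron subgroups, with exact 95% intervals. Bmp4 and Id1 are highest in sheath or meningeal fibroblasts, Fstl1 in peptidergic neurons and Acvr1b in A-fibre neurons.

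Another 91 genes of the pathway were sorted into 6 lists. Of 18 latency and activation genes, 11 were higher and 3 lower in fibroblasts, and 0 higher and 17 lower in neurons. Over all genes tested, 15.8% were higher and 22.0% lower in fibroblasts, and 21.2% higher and 33.1% lower in neurons. Fbn2, a microfibril protein that holds latent TGF-beta, had 539 CPM in fibroblasts against 85.3 CPM in cartilage or bone, Nrros, which anchors latent TGF-beta on myeloid cells, had 295 CPM in macrophages, and Lrrc32, its relative, had 93.5 CPM in mural cells. Of 17 further antagonists, 6 were higher and 6 lower in neurons and 6 higher and 3 lower in fibroblasts, beside the same shares of all genes. Sostdc1, a BMP and Wnt antagonist, had 1357 CPM in immature Schwann cells and 1212 CPM in satellite glia, Fstl5 had 15.9 CPM in neurons (583 of 623 UMIs), and Wfikkn2 had 4.70 CPM in fibroblasts. Sostdc1 leads the genes of the immature Schwann class, so its level there describes the class.

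Of 12 other response genes, 8 were higher and 4 lower in central astrocytes (9.97% of all genes higher and 12.9% lower), 6 higher and 2 lower in fibroblasts (15.8% and 22.0%), and 0 higher and 10 lower in neurons (21.2% and 33.1%). In cartilage or bone 6 were higher, where 8.58% of genes were, and 2 lower. Tgfbi, a matrix protein induced by TGF-beta, had 883 CPM in fibroblasts and 114 CPM in cartilage or bone, and Cdkn2b, a cell cycle inhibitor induced by TGF-beta, had 77.7 CPM in fibroblasts and 10.0 CPM in endothelial cells. Msx1, a BMP target, had 38.0 CPM in central astrocytes and 34.8 CPM in endothelial cells, which were not apart. Of 16 Smads and regulators, 7 were higher and 1 lower in endothelial cells (11.3% and 18.1% of all genes), 4 higher and 2 lower in macrophages (11.7% and 27.1%), and 6 higher and 0 lower in cartilage or bone (8.58% higher). Pmepa1, a TGF-beta-induced inhibitor of Smad signalling, had 784 CPM in satellite glia and 337 CPM in cartilage or bone. The Smad corepressors Tgif1 and Skil had 134 and 219 CPM in macrophages. Of the 18 other ligands 3 held at least 100 UMIs: Bmp8a at 32.8 CPM in cartilage or bone, Lefty1 at 8.04 CPM in fibroblasts and Gdf9 at 4.62 CPM in cartilage or bone, the last pair not apart from the next class. Of the 10 other receptors and co-receptors, Rgma, a BMP co-receptor, had 131 CPM in central astrocytes, Vasn, which binds TGF-beta, 107 CPM in cartilage or bone, and Cd109, a TGF-beta co-receptor, 54.9 CPM there and 52.6 CPM in endothelial cells.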

How the data were processed

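One single-cell library of the wild-type trigeminal ganglion was used, as raw UMI counts per gene and barcode deposited by the authors. Cell Ranger 3.1.0 and the mm10 build are listed in the submitters' processing notes, but per the file headers the deposited counts came from version 7.0.1. No source used here states if introns were counted. Barcodes with at least 1000 UMIs, at least 500 genes and at most 20% mitochondrial UMIs were kept, which is 72.2% of them. A gate score is the mean, over a class's markers, of the cell's level as a share of the marker's mean in its 50 highest cells. A cell entered a class when this score reached 0.1, at least 3 markers were seen and no other passing gate came within 1.5 times. The scoring rule was set after the cells were seen. In all, 1664 kept cells passed no gate and 49 fell in small gates. Another 365 passed more than 1 gate, with the best score under 1.5 times the next. All of these were left out. Scrublet called 2 doublets (0.0212%), too few to be used, so doublets were not removed. All 36 members are named, and up to 3 genes per pathway list. The members and lists were chosen with earlier results of these data known. Gene positions are from GENCODE vM21 (GRCm38) and promoters from RefSeq (GRCm38.p6). The comparison was tried on simulated counts drawn with Poisson error alone, so spread between cells or libraries was not covered. Python 3.11.15, numpy 2.4.6, scipy 1.17.1, pandas 2.3.3, scanpy 1.11.5 and leidenalg 0.10.2 were used. The 6 molar libraries were not analysed here.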

Additional observations from a re-analysis of the deposited data

How the results depend on the processing

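No paired analysis was possible because the molar groups, which share replicate numbers, were not analysed here and the ganglion was 1 library. Of the counts of members called higher in a class, these moved by more than 1.5 times. Counted as UMIs per cell, neurons had 15 in place of 4 (62.2% of genes were then higher there, in place of 21.2%). Satellite glia had 2 in place of 5 (3.66% in place of 7.62%). Early myelinating Schwann cells had 1 in place of 3 (2.53% in place of 4.52%). Mural cells had 5 in place of 10 (3.32% in place of 8.22%) and B lymphocytes 1 in place of 3 (3.73% in place of 11.1%). With a fold of 3, neurons had 2, satellite glia 2, early myelinating Schwann cells 0 and mural cells 6. With the mean of per-cell CPM, satellite glia had 2 and early myelinating Schwann cells 1. With gate thresholds 2 times as high, mature myelinating Schwann cells had 2 in place of 1, and with Leiden clusters cartilage or bone had 9 in place of 14. Shares over all genes were counted again only for UMIs per cell. Counts of members called lower moved too. As UMIs per cell, neurons had 13 in place of 21 (11.2% of genes) and satellite glia 20 in place of 13 (25.1%). Endothelial cells then had 16 in place of 10 (33.8%) and mural cells 13 in place of 7 (31.2%). B lymphocytes had 29 in place of 19 (41.6%) and cartilage or bone 1 in place of 4 (16.1%). At most 4 lower counts moved under any other setting, with the erythroid level subtracted. The ratio of Gdf10 in cartilage or bone to all other gated cells reversed, to 0.481, with Leiden clusters. The causes were not tested. Subgroup and pair counts also moved, 11 of them as UMIs per cell and 14 with gate thresholds 2 times as high. The share of cells with any type I and any type II receptor moved in 15 classes without thinning and in 13 at 3000 UMIs. That readout is broader than the receptor pairs given above, for which moves were not counted. Over 12 alternatives, 31 of 36 members kept the ratio of their reported leading class past the fold, but the leading class itself changed for 12 members under at least 1 of 9. As UMIs per cell, neurons led Bmpr2 and Fstl1; with clusters, fibroblasts led Tgfb3 at 33.0 against 17.9 CPM; and with the mean of per-cell CPM, endothelial cells led Smad7. Without the cell with most UMIs of the member, an alternative chosen after seeing the data, 35 ratios kept their call status. The ratio of Gdf11 in mural cells, 1.94 with all cells, was among them and was not called in either case. The ratio of Grem1, at 3.18, lost its call, since its interval reached 1. Mrgpra3 neurons under higher gate thresholds were not run, since 6 cells were left. Depth limits Grem1, Inhbb and Inhba, which held 52, 88 and 167 UMIs.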
